A study of Gallus gallus with 5 samples.

Results

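The genes described here are the matrix metalloproteinases (MMP), their tissue inhibitors (TIMP), the secreted ADAMTS and ADAMTS-like proteins and the membrane-bound ADAM proteins of the regenerating chicken feather follicle. They were chosen by gene name, and 45 of the 17108 entries of the deposited table matched, with 14 MMP, 3 TIMP, 18 ADAMTS or ADAMTSL and 10 ADAM entries. Flight feather follicles of the wing were plucked to start regrowth, lentiviral vectors were used to raise or knock down gene expression in the follicle, and each library holds RNA of 5 pooled follicles. The groups were Wnt5a overexpression (1 library, called the library labelled Wnt5a below), lnc7831 knockdown (1 library), lnc3500 knockdown (1 library) and wild type (2 libraries, whose titles alone carry the unexplained tag T4). The labels give no strain, age, vector-only library or time after plucking. The labelled source is dermal papilla and the labelled tissue is feather follicle.

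Matrix proteases cut collagens, proteoglycans and cell surface proteins, and a regrowing follicle remodels all of these around the dermal papilla and the growing epithelium. MMPs are made as inactive precursors and are blocked by TIMPs once active. ADAMTS enzymes process procollagens and large proteoglycans, and ADAM enzymes release growth factors, receptors and adhesion molecules from cell membranes. The roles given below for single genes are known mainly from human and mouse.

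Values are FPKM, which scale the fragments of a gene by its length and by library size. Levels can be set side by side between genes, read depth is unknown, and paired wild-type values are those of libraries 1 and 2 in that order. Of the 45 entries 42 averaged 1 FPKM or more and were tested among 11031 genes. The other 3 were ADAM11 (0.292 to 1.36 FPKM), ADAMTS20 (0.367 to 0.620 FPKM) and ADAMTSL1, which was listed at 0 in every library. As deposited, the median gene was higher than in wild type by 0.54 on the log2 scale in the library labelled Wnt5a, 0.64 in lnc7831 knockdown and 0.56 in lnc3500 knockdown. For this reason each library was centred on its median gene, and a relative difference below is one of log2(centred FPKM + 1), with the standard error (SE) from limma. Each treated group has 1 library, so the only spread between libraries is that of the wild types. A gene is said to be past the 2-fold rule when its centred FPKM + 1 was at least 2-fold above, or below, that of both wild types. All folds between wild types or between treated libraries are likewise of centred FPKM + 1, which makes them smaller than the ratio of the FPKM, most of all in low genes. WNT5A itself had 75.7 FPKM in the library labelled Wnt5a, 162 in lnc7831 knockdown and 43.8 in lnc3500 knockdown, against 29.7 and 64.3 in wild type. Its relative difference in the first was 0.19, less than the 1.04 between the wild types. ACTB, cytoplasmic actin, differed by 0.26 in the library labelled Wnt5a, 0.19 in lnc7831 knockdown and 0.45 in lnc3500 knockdown. Levels of the targeted long non-coding RNAs were not analysed here.

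Markers of several cell types were present in every library. The summed centred FPKM of 12 dermal markers was 4468 in the library labelled Wnt5a, 6447 in lnc7831 knockdown and 5407 in lnc3500 knockdown, against 3887 and 3971 in wild type, with none of the 12 at 0. For 14 epidermal markers the sums were 7343, 5798 and 6185 in the same treated libraries, against 2290 and 3963 in wild type, with KRT5 at 0 throughout. For 11 leukocyte markers they were 113, 143 and 87.0, against 206 and 223, and for 7 endothelial markers 142, 164 and 149, against 131 and 184, none of either list at 0. The epidermal sum was thus above and the leukocyte sum below both wild types in each treated library. KRT14 was the largest term of the epidermal sum. Of 13 tested epidermal markers, 12 were above both wild types in the library labelled Wnt5a, 9 in lnc7831 knockdown and 11 in lnc3500 knockdown (backgrounds 31.8%, 31.0% and 31.9%). In lnc7831 knockdown 2 were below both, DSP (-0.53) and PKP1 (-0.12). The part of these cell types in the results below was not tested, and in pooled follicles fewer cells of a type and less RNA per cell cannot be told apart.

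**Figure D1:**
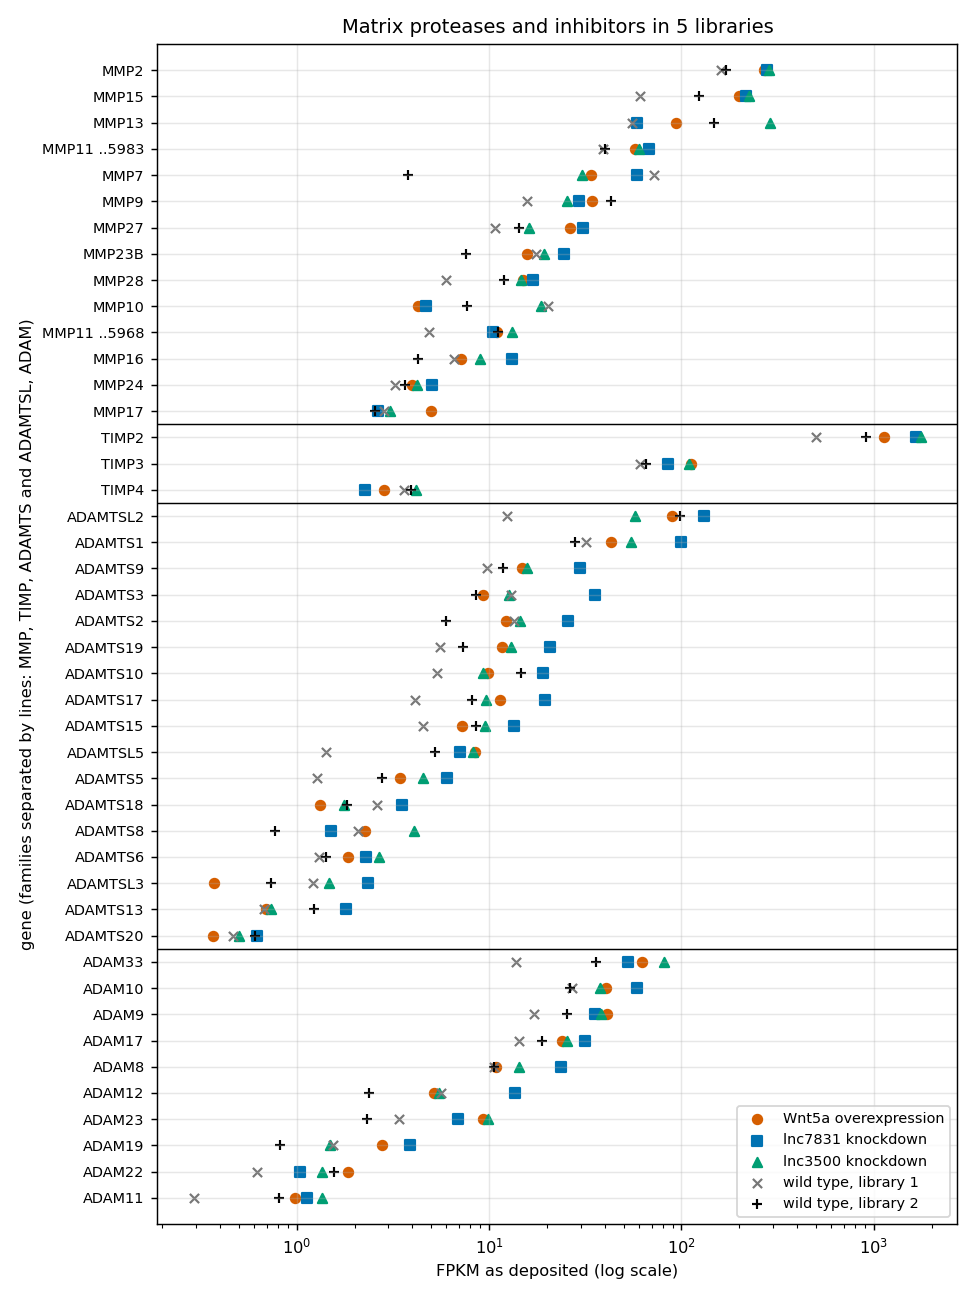
FPKM as deposited of the 44 members above 0 in all libraries (log axis), by family and ordered by mean. Circles, squares and triangles are the libraries labelled Wnt5a, lnc7831 knockdown and lnc3500 knockdown, crosses and plus signs are wild type. TIMP2 lies highest in every library, and MMP7 and ADAMTSL2 show the widest gap between the wild types.

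TIMP2, a secreted MMP inhibitor that also takes part in activating pro-MMP2, was the most abundant member in every library. It ranked 123 among the 11031 tested genes by mean FPKM. TIMP2 had 1125 FPKM in the library labelled Wnt5a, 1655 in lnc7831 knockdown and 1759 in lnc3500 knockdown, against 498 and 914 in wild type. Among the members, the highest protease by mean FPKM was MMP2, gelatinase A, which is typically made by fibroblasts. It had 269 FPKM in the library labelled Wnt5a, 277 in lnc7831 knockdown and 284 in lnc3500 knockdown, against 159.7 and 171 in wild type. Its relative difference from wild type was 0.10, 0.03 and 0.14 in these treated libraries (SE 0.39 each), and the wild types differed by 0.04. Each of these differences was smaller than the SE. MMP15, a membrane-anchored MMP, and MMP13, a collagenase, followed it. MMP2 made up 28.2% to 34.6% of the FPKM summed over the MMP entries.

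In these genes the wild types stood further apart than in genes at large. On the scale of centred FPKM + 1, 12 of the 42 tested members (28.6%) were at least 2-fold apart between the wild types, against 12.1% of all tested genes. In wild-type library 2, 7 of these members were higher (background 8.42%) and 5 lower (background 3.64%). The median absolute log2 difference between the wild types was 0.614 over the members and 0.355 over all tested genes. By family, 6 of 14 MMP, 4 of 16 ADAMTS, 2 of 9 ADAM and 0 of 3 TIMP entries were at least 2-fold apart.

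MMP7, matrilysin, a small protease mostly of epithelia, had 33.9 FPKM in the library labelled Wnt5a, 58.6 in lnc7831 knockdown and 30.5 in lnc3500 knockdown, against 71.8 and 3.80 in wild type. The wild types were 16.6-fold apart in centred FPKM + 1, library 1 being the higher. ADAMTSL2, which has no protease domain and binds fibrillin microfibrils, had 89.6 FPKM in the library labelled Wnt5a, 130.2 in lnc7831 knockdown and 57.6 in lnc3500 knockdown, against 12.3 and 98.3 in wild type. Here the wild types were 7.25-fold apart on that scale, library 2 being the higher. These were the largest gaps among the members, and after centring all 3 treated libraries lay between the wild types for both genes. The sign of their centred differences therefore depends on which wild type is used. For ADAMTSL2 in lnc7831 knockdown, the difference was -0.28 with wild-type library 2 as the sole control and 2.58 with library 1. The other members at least 2-fold apart were ADAMTSL5, MMP9, MMP13, ADAM33, ADAMTS10 and 1 MMP11 entry, higher in library 2, and MMP10, MMP23B, ADAMTS2 and ADAM12, higher in library 1. Their gaps on that scale were between 2.03- and 2.65-fold.

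The 3 treated libraries were then compared with wild type over the 42 tested members. By limma with Benjamini-Hochberg adjustment over all tested genes, 0 members were called in any comparison, with adjusted p of 1.0 for each member. At an unadjusted p below 0.05, limma took 1 member, TIMP4 in lnc7831 knockdown. Over all genes it called 1 gene (0.00907%) for the library labelled Wnt5a, 4 (0.0363%) for lnc7831 knockdown and 0 (0.0%) for lnc3500 knockdown. At the unadjusted threshold it took 442 (4.01%), 335 (3.04%) and 340 (3.08%) of 11031 genes. The differences below are therefore descriptions of single libraries, set against the spread of the wild types.

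In the library labelled Wnt5a, the median member lay near the median gene, and a larger share of members than of all tested genes lay between the wild types. MMP10, stromelysin-2, was past the 2-fold rule below both wild types (-1.89, SE 0.69, limma adjusted p = 1.0). Of the 42 members, 0 were past the 2-fold rule above both wild types (background 2.18% of all tested genes) and 1 below both (background 1.74%). As deposited, without centring, these counts were 1 and 0 (backgrounds 8.2% and 0.988%), the 1 being ADAM23. MMP10 was thus not past the rule as deposited, nor was it with a pseudocount of 5. By any margin, 11 members were above both wild types (background 31.8%), 11 below both (background 32.8%) and 20 between them (background 35.4%). Against wild-type library 2 or library 1 alone, 19 or 23 members were above it and 23 or 19 below. Shares of all tested genes against a single wild type are not given. The median member difference was -0.04, -0.09 with wild-type library 2 as sole control and 0.11 with library 1, beside 0.00 for all genes. By family, 6 of 16 ADAMTS entries lay below both wild types and 2 above, and 4 of 9 ADAM entries lay above and 1 below.

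After centring, more members lay above the wild types in lnc7831 knockdown, chiefly ADAMTS and ADAM entries, while MMP10, MMP13 and TIMP4 lay below them. By any margin, 21 of 42 members were above both wild types (background 31.0%), 7 below both (background 32.3%) and 14 between them (background 36.7%). Of 16 ADAMTS entries, 9 were above both and 0 below, with a median difference of 0.60, and of 9 ADAM entries 6 were above and 1 below, with a median of 0.42. The 14 MMP entries had a median of 0.05, with 5 above both and 4 below. Past the 2-fold rule were 0 members above (background 1.64%) and 2 below (background 1.32%), MMP10 and TIMP4. As deposited these counts were 9 and 0, the 9 being MMP27, ADAMTS1, ADAMTS3, ADAMTS9, ADAMTS17, ADAMTS19, ADAM8, ADAM10 and ADAM12 (backgrounds 10.5% and 0.707%). By any margin as deposited, the share of members above both wild types was below the 84.6% of all tested genes. The median member difference was 0.35 beside 0.00 for all genes, but 0.10 against wild-type library 2 alone, where 25 members were above and 17 below it. Against library 1 alone it was 0.33, with 31 above and 11 below. For these single controls the shares of all tested genes are not given.

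In lnc3500 knockdown, ADAM33, MMP13 and ADAM23 had the largest positive differences of the members and MMP9 the largest negative one. The median member again lay near the median gene, and again a larger share of members than of all tested genes lay between the wild types. By any margin, 13 members were above both wild types (background 31.9%), 10 below both (background 32.2%) and 19 between them (background 35.9%). Past the 2-fold rule were 0 members above (background 1.43%) and 0 below (background 1.64%). As deposited, 2 were past it above, ADAM33 and ADAM23, and 0 below (backgrounds 8.17% and 0.789%). The median member difference was 0.06, 0.02 with wild-type library 2 as sole control and 0.12 with library 1. Against library 2 alone 21 members were above and 21 below, and against library 1 alone 24 were above and 18 below. The shares of all tested genes for these counts are not given.

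**Figure D2:**
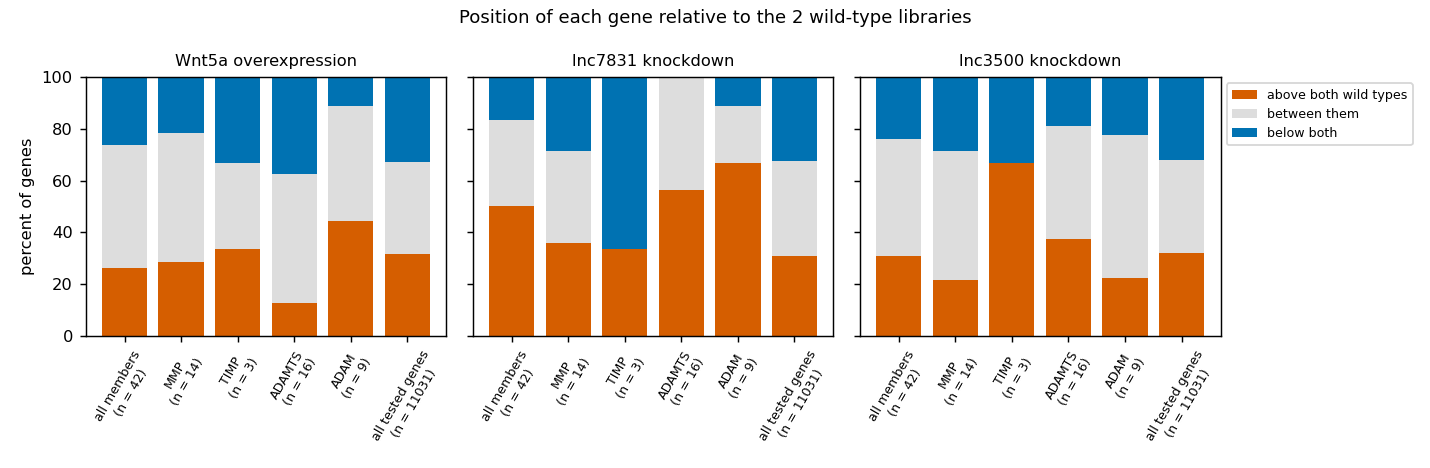
Percent of genes whose centred value in a treated library lay above both wild types (orange), between them (grey) or below both (blue), for all members, each family and all 11031 tested genes, with the library labelled Wnt5a at left. In lnc7831 knockdown, 9 of 16 ADAMTS entries are in the upper class and 0 in the lower, against 31.0% and 32.3% of all genes.

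Among the MMPs, 4 measured genes are near neighbours in the chicken genome, in the order MMP13, MMP10, MMP27, MMP7 in the RefSeq gene table (assembly GRCg7b). MMP3 and MMP1 lie between MMP10 and MMP27 there and no other protein-coding gene lies within the run. The 4 followed no common pattern over the libraries. MMP10, which cleaves many non-collagen matrix proteins and is known from wound-edge keratinocytes, had 4.29 FPKM in the library labelled Wnt5a, 4.68 in lnc7831 knockdown and 18.6 in lnc3500 knockdown, against 20.2 and 7.66 in wild type. The library labelled Wnt5a overexpression and lnc7831 knockdown lay below the wild-type range, and lnc3500 knockdown lay within it. The wild types were 2.59-fold apart in centred FPKM + 1, and the relative difference in the library labelled Wnt5a came to -1.20 relative to wild-type library 2 and -2.58 relative to library 1. In lnc7831 knockdown it was -1.88 (SE 0.69, limma adjusted p = 1.0), or -1.19 and -2.57 against the same libraries. Without centring neither library was 2-fold below wild-type library 2. The ratio of MMP10 to MMP2 within a library, which no scaling changes, was 0.0160 in the library labelled Wnt5a, 0.0169 in lnc7831 knockdown and 0.0653 in lnc3500 knockdown, against 0.127 and 0.0448 in wild type.

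MMP13, collagenase-3, cuts fibrillar collagen. It had 94.0 FPKM in the library labelled Wnt5a, 58.6 in lnc7831 knockdown and 287 in lnc3500 knockdown, against 55.5 and 148 in wild type. Relative to the median gene it was below both wild types in lnc7831 knockdown (-1.33, SE 0.71) and above both in lnc3500 knockdown (1.02, SE 0.71), while the library labelled Wnt5a lay between them (-0.55). As deposited, the 58.6 FPKM of lnc7831 knockdown lay between the wild types. Because the wild types differed 2.54-fold in centred FPKM + 1, these values were -2.002 and 0.35 against wild-type library 2, and -0.66 and 1.69 against library 1. The ratio of MMP13 to MMP2 was 0.350 in the library labelled Wnt5a, 0.211 in lnc7831 knockdown and 1.01 in lnc3500 knockdown, against 0.348 and 0.867 in wild type, so that of lnc7831 knockdown was the lowest and that of lnc3500 knockdown the highest of the 5.

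MMP27 had 26.3 FPKM in the library labelled Wnt5a, 30.8 in lnc7831 knockdown and 16.1 in lnc3500 knockdown, against 10.8 and 14.3 in wild type. It was above both wild types in the library labelled Wnt5a (0.45, SE 0.35) and in lnc7831 knockdown (0.56), the libraries where MMP10 was low, and below both in lnc3500 knockdown (-0.24), although as deposited all treated libraries were above both. The ratio of MMP27 to MMP10 was 6.13 in the library labelled Wnt5a, 6.59 in lnc7831 knockdown and 0.870 in lnc3500 knockdown, against 0.532 and 1.87 in wild type.

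**Figure D3:**
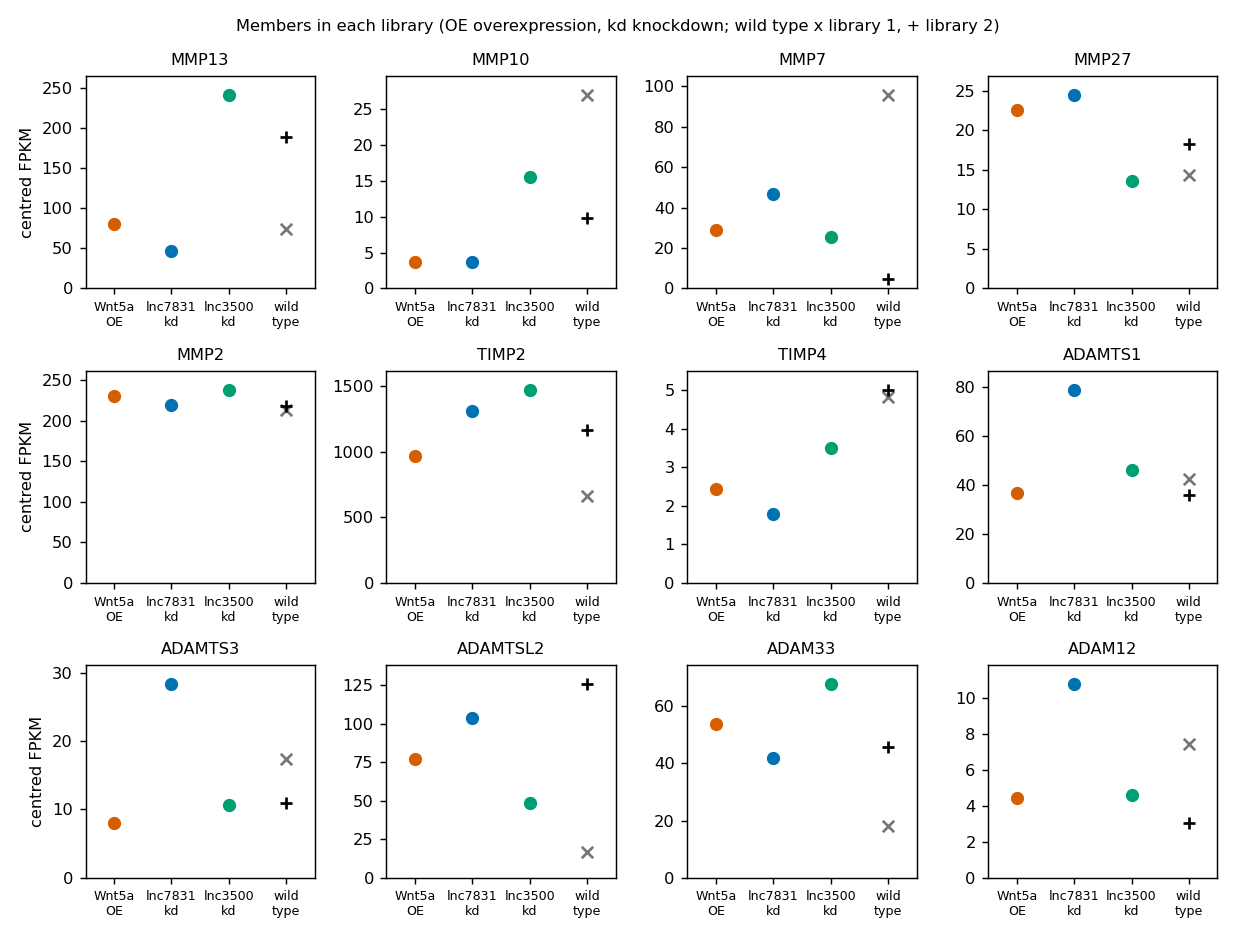
Centred FPKM (deposited FPKM divided by the factor of the library, axes from 0) of 12 members in the library labelled Wnt5a (Wnt5a OE), lnc7831 knockdown, lnc3500 knockdown and wild type. MMP10 is lowest in the first pair, MMP13 lowest in lnc7831 knockdown and highest in lnc3500 knockdown, and ADAMTS1, ADAMTS3 and ADAM12 highest in lnc7831 knockdown.

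MMP9, gelatinase B, which leukocytes and epithelium make, had 34.5 FPKM in the library labelled Wnt5a, 29.2 in lnc7831 knockdown and 25.5 in lnc3500 knockdown, against 15.8 and 43.1 in wild type. All treated libraries lay between the wild types, with relative differences from -0.65 to -0.20. Of the 11 leukocyte markers, 9 were below both wild types and 2 above in the library labelled Wnt5a (backgrounds 32.8% and 31.8%). In lnc7831 knockdown 8 were below and 2 above (backgrounds 32.3% and 31.0%), and in lnc3500 knockdown 9 and 0 (backgrounds 32.2% and 31.9%). The 2 above were MARCO (0.60 in the library labelled Wnt5a, 0.77 in lnc7831 knockdown) and LY86 (0.43 and 0.48). CSF1R lay between the wild types in lnc7831 knockdown (0.19). The medians of the 11 markers were -1.02, -0.65 and -1.39, and their part in the MMP9 values was not tested. MMP15 had 200.1 FPKM in the library labelled Wnt5a, 216 in lnc7831 knockdown and 223 in lnc3500 knockdown, against 60.7 and 124 in wild type. It lay above both wild types in each treated library, with relative differences of 0.60 in the library labelled Wnt5a, 0.60 in lnc7831 knockdown and 0.72 in lnc3500 knockdown (SE 0.58 each). All were smaller than the 0.96 between the wild types, and against wild-type library 2 alone they were 0.12, 0.12 and 0.24. MMP16, MMP17 and MMP24, also membrane-anchored, ranged from 2.55 to 13.2 FPKM, and their relative differences from -0.54 to 0.53.

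MMP23B, a transmembrane MMP, had 15.7 FPKM in the library labelled Wnt5a, 24.6 in lnc7831 knockdown and 19.4 in lnc3500 knockdown, against 17.6 and 7.55 in wild type. Its treated values lay between the wild types after centring. The secreted MMP28, epilysin, ranged from 5.96 to 16.9 FPKM and also lay between them in each treated library. Both entries named MMP11 are uncertain, since the RefSeq table gives MMP11 as a synonym of SMARCB1, which names no entry of the deposited table. The higher one (ENSGALG00000005983) had 57.4 FPKM in the library labelled Wnt5a, 67.9 in lnc7831 knockdown and 60.3 in lnc3500 knockdown, against 38.9 and 40.1 in wild type, and its relative differences were between -0.06 and 0.07. The lower one (ENSGALG00000005968) had 11.05 FPKM in the library labelled Wnt5a, 10.5 in lnc7831 knockdown and 13.2 in lnc3500 knockdown, against 4.89 and 11.2 in wild type, between the wild types after centring in each treated library.

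The inhibitors differed from each other in their pattern. TIMP2 lay between the wild types in the library labelled Wnt5a (0.14) and above both in lnc7831 knockdown (0.58) and lnc3500 knockdown (0.74, SE 0.55). Against wild-type library 2 alone, it was at -0.27, 0.17 and 0.34 in these libraries. The ratio of TIMP2 to MMP2 was 4.19 in the library labelled Wnt5a, 5.97 in lnc7831 knockdown and 6.19 in lnc3500 knockdown, against 3.12 and 5.34 in wild type. That ratio was highest in the knockdown libraries, and wild-type library 2 lay above the library labelled Wnt5a.

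TIMP3 stays bound to matrix and also blocks several ADAM and ADAMTS enzymes. It had 113 FPKM in the library labelled Wnt5a, 84.7 in lnc7831 knockdown and 109 in lnc3500 knockdown, against 61.2 and 65.5 in wild type. The wild types were 1.02-fold apart in centred FPKM + 1, and the relative difference was 0.23 in the library labelled Wnt5a, -0.29 in lnc7831 knockdown and 0.15 in lnc3500 knockdown (SE 0.37 each). Lnc7831 knockdown was thus below both wild types relative to the median gene, while as deposited every treated library was above both. The ratio of ADAMTS1 to TIMP3 was 0.380 in the library labelled Wnt5a, 1.17 in lnc7831 knockdown and 0.504 in lnc3500 knockdown, against 0.522 and 0.430 in wild type. Lnc7831 knockdown was the library in which ADAMTS1 exceeded TIMP3 in FPKM.

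TIMP4 was the scarcest inhibitor, with 2.84 FPKM in the library labelled Wnt5a, 2.26 in lnc7831 knockdown and 4.18 in lnc3500 knockdown, against 3.63 and 3.93 in wild type. Relative to the median gene it lay below both wild types in each treated library, with differences of -0.78 in the library labelled Wnt5a (SE 0.34, limma adjusted p = 1.0), -1.08 in lnc7831 knockdown (adjusted p = 1.0) and -0.39 in lnc3500 knockdown. The wild types differed by 0.04. As deposited, the 4.18 FPKM of lnc3500 knockdown was above both wild types, and the difference in lnc7831 knockdown was -0.55. With a pseudocount of 5, TIMP4 in lnc7831 knockdown was not past the 2-fold rule. In FPKM, TIMP2 exceeded TIMP4 by 396-fold in the library labelled Wnt5a, 732-fold in lnc7831 knockdown and 421-fold in lnc3500 knockdown, against 137- and 233-fold in wild type.

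Summed over their families, TIMP and MMP levels gave a ratio of 1.60 in the library labelled Wnt5a, 2.13 in lnc7831 knockdown and 1.85 in lnc3500 knockdown, against 1.19 and 1.66 in wild type. TIMP2 made up between 88.5% and 95.0% of the TIMP sum, but the ratio did not follow that gene alone. It was higher in lnc7831 than in lnc3500 knockdown, while TIMP2 was lower (1655 against 1759 FPKM). The MMP sum, which holds both uncertain MMP11 entries, was 816 FPKM in lnc7831 knockdown and 1009 in lnc3500 knockdown. MMP13 alone had 58.6 and 287 FPKM in these knockdown libraries. Lnc7831 knockdown and lnc3500 knockdown lay above both wild types, and the library labelled Wnt5a between them. FPKM of RNA do not give the amounts of active protease or inhibitor.

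**Figure D4:**
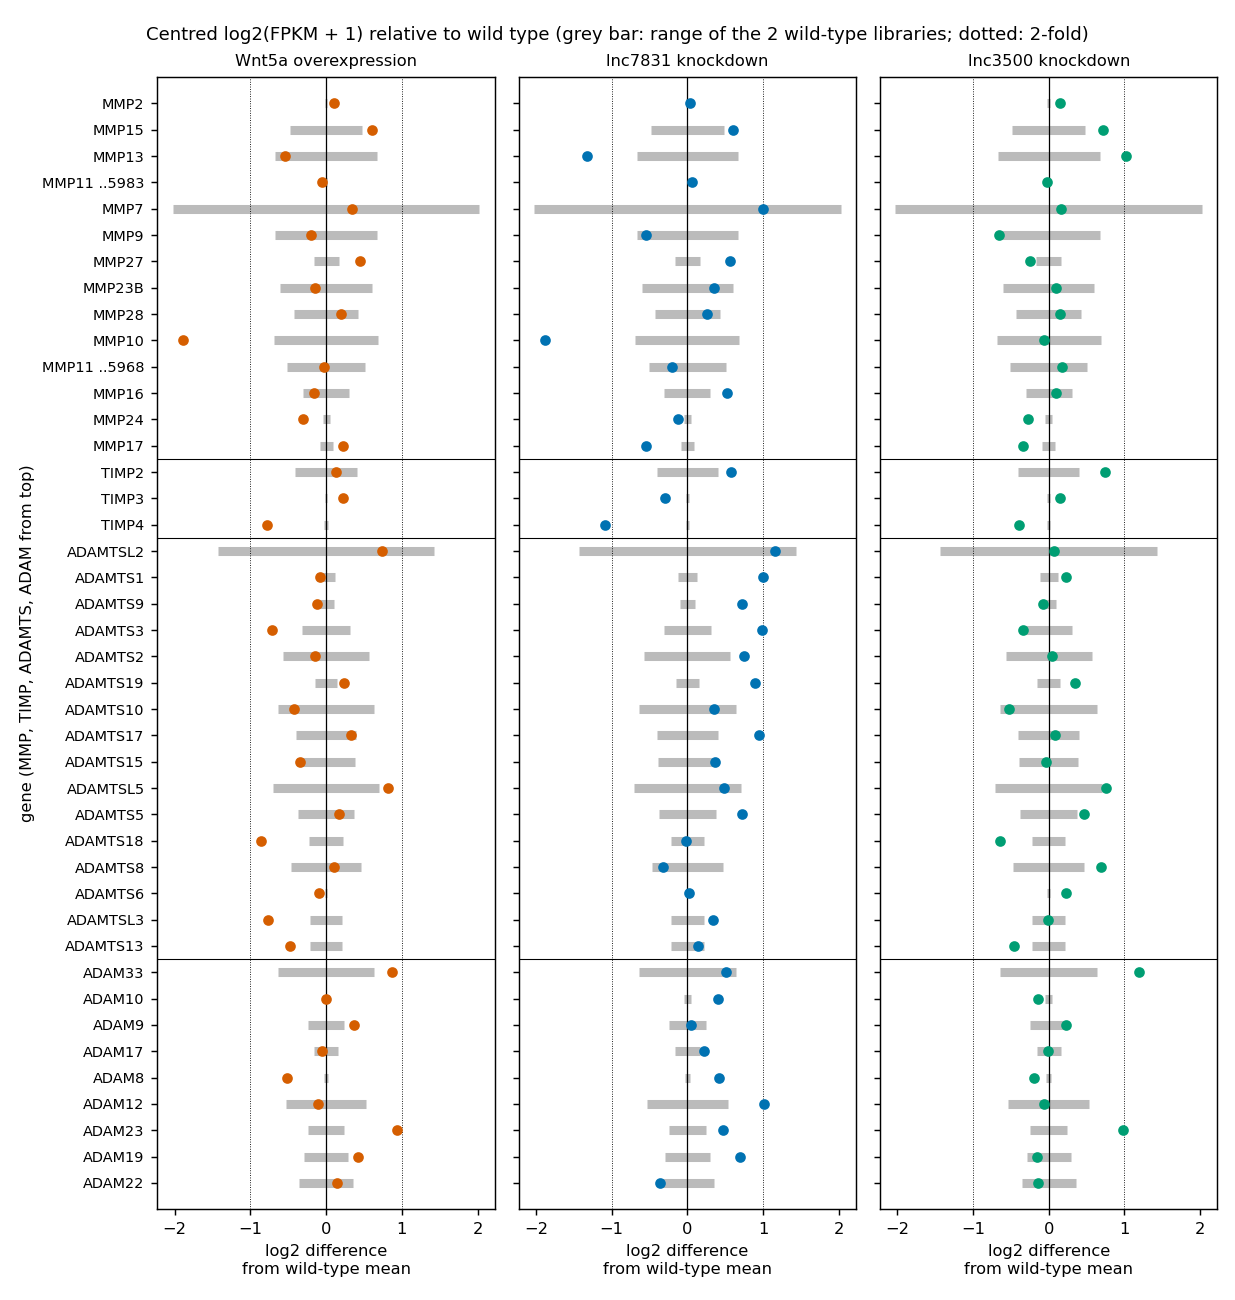
Centred log2 difference of each tested member from the wild-type mean (points), with the range of the 2 wild-type libraries as a grey bar and 2-fold marked by dotted lines, for the library labelled Wnt5a (left), lnc7831 knockdown (centre) and lnc3500 knockdown (right). MMP10 lies left of its bar in the first pair of panels, and most ADAMTS points lie right of zero in lnc7831 knockdown.

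Of the ADAMTS entries, 14 of 16 were above the wild-type mean in lnc7831 knockdown, against 50.4% of all tested genes. ADAMTS1, which cuts the proteoglycans versican and aggrecan, had 42.8 FPKM in the library labelled Wnt5a, 99.4 in lnc7831 knockdown and 54.99 in lnc3500 knockdown, against 31.9 and 28.1 in wild type. Its relative difference in lnc7831 knockdown was 0.995 (SE 0.37, limma adjusted p = 1.0), or 1.12 against wild-type library 2 and 0.87 against library 1. ADAMTS9, another versican-cleaving enzyme, had 14.9 FPKM in the library labelled Wnt5a, 29.9 in lnc7831 knockdown and 15.8 in lnc3500 knockdown, against 9.73 and 11.8 in wild type, with a difference of 0.72 (SE 0.32). In both genes lnc7831 knockdown stood above the other 4 libraries, also after centring. ADAMTS5, an aggrecanase next to ADAMTS1 in the RefSeq table, had 3.45 FPKM in the library labelled Wnt5a, 6.04 in lnc7831 knockdown and 4.56 in lnc3500 knockdown, against 1.28 and 2.78 in wild type, a difference of 0.73 in lnc7831 knockdown.

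The enzymes that remove the amino-terminal propeptide of fibrillar procollagens were also high there. ADAMTS3 had 9.30 FPKM in the library labelled Wnt5a, 35.6 in lnc7831 knockdown and 12.7 in lnc3500 knockdown, against 13.0 and 8.54 in wild type. Its relative difference was 0.99 in lnc7831 knockdown (SE 0.42) and -0.71 in the library labelled Wnt5a, where it lay below both wild types after centring but between them as deposited. ADAMTS2 had 12.3 FPKM in the library labelled Wnt5a, 25.8 in lnc7831 knockdown and 14.5 in lnc3500 knockdown, against 13.5 and 5.98 in wild type, again highest in lnc7831 knockdown. Its difference there was 0.75 (SE 0.60), or 1.31 against wild-type library 2 and 0.18 against library 1. Among their substrates, COL3A1 had 532 FPKM in the library labelled Wnt5a, 1421 in lnc7831 knockdown and 749.8 in lnc3500 knockdown, against 379 and 279.9 in wild type. COL1A2 had 2348 FPKM in the library labelled Wnt5a, 3996 in lnc7831 knockdown and 2914 in lnc3500 knockdown, against 1213 and 1003 in wild type, so both collagen chains were also highest in lnc7831 knockdown.

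ADAMTS17 and ADAMTS19 were also above both wild types in lnc7831 knockdown. ADAMTS19 had 11.6 FPKM in the library labelled Wnt5a, 20.7 in lnc7831 knockdown and 13.1 in lnc3500 knockdown, against 5.58 and 7.37 in wild type, a difference of 0.89 (SE 0.33, limma adjusted p = 1.0). ADAMTS17, linked in human to fibrillin microfibrils, had 11.4 FPKM in the library labelled Wnt5a, 19.6 in lnc7831 knockdown and 9.68 in lnc3500 knockdown, against 4.14 and 8.11 in wild type, a difference of 0.94. Against this, ADAMTS8 (-0.32) and ADAMTS18 (-0.02) lay below the wild-type mean and ADAMTS6 (0.02) near it. ADAMTS10 had 9.82 FPKM in the library labelled Wnt5a, 19.0 in lnc7831 knockdown and 9.33 in lnc3500 knockdown, against 5.35 and 14.7 in wild type and lay between the wild types in each treated library. With a single wild type as control, the ADAMTS median of 0.60 became 0.27 (library 2) or 0.78 (library 1). Then 11 and 14 of 16 entries were above it, and the shares of all tested genes are not given. With upper-quartile centring the ADAMTS median was also positive. As deposited it was 1.16, where the median of all tested genes was itself 0.64, so its sign alone says little there.

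Most genes of a list of matrix substrates, which was not limited to targets of ADAMTS enzymes, were also above wild type in lnc7831 knockdown. Of 25 tested matrix substrate genes, 16 were above both wild types there (background 31.0%) and 2 below both (background 32.3%), with a median of 0.45. Past the 2-fold rule above both was 1, COL3A1 (background 1.64%). The median was 0.01 in the library labelled Wnt5a and 0.25 in lnc3500 knockdown. Of the 12 dermal markers, 5 were above both wild types in lnc7831 knockdown, 2 below and 5 between, with a median of 0.21. Their median was 0.10 in the library labelled Wnt5a and 0.28 in lnc3500 knockdown. Summed, these markers, which share 5 genes with the matrix list, were highest in lnc7831 knockdown, with COL1A2 and COL3A1 the largest terms there. Their part in the ADAMTS values was not tested. VCAN, the proteoglycan versican, had 35.3 FPKM in the library labelled Wnt5a, 61.5 in lnc7831 knockdown and 34.5 in lnc3500 knockdown, against 37.2 and 21.0 in wild type, and lnc7831 knockdown lay between the wild types after centring. Of the other proteoglycan genes listed, ACAN, aggrecan, lay between the wild types in lnc7831 knockdown (-0.29). BCAN (-0.13) and DCN (-0.17) were below both there, and LUM (0.04) was above both.

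In the library labelled Wnt5a the same family had a median of -0.11, and in lnc3500 knockdown 0.06. ADAMTS18 (-0.85, SE 0.42) and ADAMTSL3 (-0.77) had the largest negative differences in the library labelled Wnt5a. The largest positive ones there were those of ADAMTSL5 (0.82, SE 0.71, above both wild types) and ADAMTSL2 (0.73, SE 1.34, between them). ADAMTSL3, an ADAMTS-like protein, had 0.373 FPKM in the library labelled Wnt5a, 2.34 in lnc7831 knockdown and 1.48 in lnc3500 knockdown, against 1.21 and 0.738 in wild type, and with a pseudocount of 0.1 it was past the 2-fold rule below both wild types there. ADAMTSL5 had 8.50 FPKM in the library labelled Wnt5a, 7.03 in lnc7831 knockdown and 8.26 in lnc3500 knockdown, against 1.42 and 5.22 in wild type. In lnc3500 knockdown ADAMTS8, with 4.06 FPKM against 2.09 and 0.771 in wild type, had a difference of 0.68 (SE 0.57). Its neighbour in the RefSeq table, ADAMTS15, was at -0.03 there, with 4.51 to 13.6 FPKM over the 5 libraries. ADAMTS13, which cleaves von Willebrand factor, had 0.694 FPKM in the library labelled Wnt5a, 1.81 in lnc7831 knockdown and 0.735 in lnc3500 knockdown, against 0.680 and 1.23 in wild type.

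Of the ADAM proteins, ADAM10 and ADAM17, the main membrane sheddases of Notch receptors and of growth factors, had small differences. ADAM10 had 40.3 FPKM in the library labelled Wnt5a, 58.6 in lnc7831 knockdown and 37.6 in lnc3500 knockdown, against 27.0 and 26.4 in wild type. ADAM17 had 24.05 FPKM in the library labelled Wnt5a, 31.7 in lnc7831 knockdown and 25.4 in lnc3500 knockdown, against 14.3 and 18.9 in wild type. Their relative differences were between -0.14 and 0.41, and lnc7831 knockdown was above both wild types for each. The ratio of ADAM17 to ADAM10 stayed between 0.532 and 0.716. ADAM9, another sheddase, ranged from 17.1 to 41.0 FPKM, with differences from 0.05 to 0.36.

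ADAM33 was the most abundant ADAM by mean FPKM, with 62.7 FPKM in the library labelled Wnt5a, 52.8 in lnc7831 knockdown and 80.7 in lnc3500 knockdown, against 13.7 and 35.8 in wild type. It was above both wild types in the library labelled Wnt5a (0.87) and in lnc3500 knockdown (1.19, SE 0.67), and between them in lnc7831 knockdown. Against wild-type library 2 alone the difference in lnc3500 knockdown was 0.56, and against library 1 alone 1.83. ADAM23, which lacks an active protease site and acts in cell adhesion, had 9.27 FPKM in the library labelled Wnt5a, 6.90 in lnc7831 knockdown and 9.86 in lnc3500 knockdown, against 3.41 and 2.32 in wild type. It lay above both wild types in each treated library, by 0.93 in the library labelled Wnt5a (limma adjusted p = 1.0), 0.47 in lnc7831 knockdown and 0.98 in lnc3500 knockdown, with an SE of 0.38. ADAM22, another ADAM without an active protease site, had 1.86 FPKM in the library labelled Wnt5a, 1.04 in lnc7831 knockdown and 1.35 in lnc3500 knockdown, against 0.623 and 1.56 in wild type, and its treated values were between -0.35 and 0.15 on the relative scale.

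ADAM12 and ADAM19, the meltrins of mesenchymal tissue, were highest in lnc7831 knockdown. ADAM12 had 5.17 FPKM in the library labelled Wnt5a, 13.6 in lnc7831 knockdown and 5.53 in lnc3500 knockdown, against 5.62 and 2.39 in wild type, with lnc7831 knockdown the highest. Its relative difference there was 1.01 (SE 0.57), or 1.54 against wild-type library 2 and 0.47 against library 1. ADAM19 had 2.76 FPKM in the library labelled Wnt5a, 3.87 in lnc7831 knockdown and 1.498 in lnc3500 knockdown, against 1.56 and 0.823 in wild type. ADAM8, typical of myeloid cells, had 10.9 FPKM in the library labelled Wnt5a, 23.8 in lnc7831 knockdown and 14.3 in lnc3500 knockdown, against 10.6 and 10.6 in wild type, and its difference was -0.52 in the library labelled Wnt5a, 0.42 in lnc7831 knockdown and -0.19 in lnc3500 knockdown. Whether the leukocyte markers counted beside MMP9 bear on the ADAM8 values was not tested.

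Between treated libraries, single libraries were set against each other by the same 2-fold measure, with no test. Between lnc7831 and lnc3500 knockdown, 6 of 42 members (14.3%) were at least 2-fold apart (background 5.98% of all tested genes). ADAMTS3 (1.33), ADAMTSL2 (1.08) and ADAM12 (1.07) were higher in lnc7831 knockdown on the relative log2 scale (background 3.26%). MMP13 (-2.35), MMP10 (-1.81) and ADAMTS8 (-1.001) were lower in it (background 2.72%). Between the library labelled Wnt5a and lnc7831 knockdown, 4 members were that far apart, 9.52% against a background of 6.14%. ADAMTS3 (-1.70), ADAM12 (-1.12), ADAMTSL3 (-1.12) and ADAMTS1 (-1.08) were lower in the library labelled Wnt5a (background 3.28%), and 0 were higher (background 2.86%). Between that library and lnc3500 knockdown it was 2 members, 4.76% against a background of 1.74%, with MMP10 (-1.82) and MMP13 (-1.56) lower in the library labelled Wnt5a (background 0.988%) and 0 higher (background 0.752%).

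Other genes of proteolysis at the cell surface and in the matrix, from a list of 40 names, were placed in the same way. By any margin, 9 of 27 tested were above both wild types and 10 below in the library labelled Wnt5a (backgrounds 31.8% and 32.8%). In lnc7831 knockdown 13 were above and 7 below (backgrounds 31.0% and 32.3%), and in lnc3500 knockdown 9 and 7 (backgrounds 31.9% and 32.2%). Of the 27 tested, 0 were past the 2-fold rule above both wild types in any comparison (backgrounds 2.18%, 1.64% and 1.43%). Below both was 1, HTRA1 in the library labelled Wnt5a (background 1.74%). HTRA1, a secreted serine protease, had 489.6 FPKM in the library labelled Wnt5a, 565 in lnc7831 knockdown and 948 in lnc3500 knockdown, against 681 and 694 in wild type, a relative difference of -1.09 there (SE 0.41, limma adjusted p = 1.0). The medians of the list were 0.06 in the library labelled Wnt5a, 0.15 in lnc7831 knockdown and 0.00 in lnc3500 knockdown. FURIN, the convertase that activates several MMP, ADAM and ADAMTS precursors, had 37.7 FPKM in the library labelled Wnt5a, 39.3 in lnc7831 knockdown and 37.8 in lnc3500 knockdown, against 7.996 and 16.4 in wild type. FURIN lay above both wild types in each treated library, though short of the 2-fold rule. Its relative differences from the wild-type mean were 1.06, 1.01 and 1.03 in these treated libraries, and the wild types differed by 0.91. RECK, a membrane-anchored MMP inhibitor, had 10.02 FPKM in the library labelled Wnt5a, 16.0 in lnc7831 knockdown and 13.2 in lnc3500 knockdown, against 7.16 and 7.98 in wild type, with differences between -0.18 and 0.34.

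Of 17 tested substrates and helpers of shedding, 15 were above both wild types in the library labelled Wnt5a (background 31.8%), 10 in lnc7831 knockdown (background 31.0%) and 10 in lnc3500 knockdown (background 31.9%). TGFA, an ADAM17-released ligand of the EGF receptor, had 25.4 FPKM in the library labelled Wnt5a, 8.07 in lnc7831 knockdown and 20.5 in lnc3500 knockdown, against 4.05 and 5.35 in wild type. Its relative difference was 1.69 (SE 0.33, limma adjusted p = 0.987) in the library labelled Wnt5a and 1.37 in lnc3500 knockdown. CDH1, the epithelial cadherin and an ADAM10 substrate, was the other gene of the list past the 2-fold rule, in the same 2 libraries. The backgrounds for this rule above both wild types were 2.18% in the library labelled Wnt5a and 1.43% in lnc3500 knockdown. CDH1 had 166 FPKM in the library labelled Wnt5a, 137 in lnc7831 knockdown and 179 in lnc3500 knockdown, against 30.9 and 48.1 in wild type, and it is also among the epidermal markers that were above wild type in the treated libraries.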

How the data were processed

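The table holds 1 FPKM value per gene and library. The authors made the FPKM with TopHat2 2.1.0 and Cufflinks 2.2.1 on galGal4, per the submitters' processing notes, and their gene names, scaling and masking settings are not given in the sources used here. Such values carry no read depth, so no counting interval can be given, and strand use and the handling of reads shared between related genes are not given. Genes averaging 1 FPKM or more were kept, and libraries were median-centred (divided by 1.16, 1.26 and 1.19 for the library labelled Wnt5a, lnc7831 and lnc3500 knockdown, against 0.751 and 0.784 for wild type). Then log2(centred FPKM + 1) was fitted with limma 3.58.1 in R 4.3.3. All 5 libraries entered 1 fit with a mean-variance trend, tests were two-sided, and p-values were Benjamini-Hochberg adjusted over 11031 genes at 0.05. Residual degrees of freedom number 1 and come from the 2 wild types, so each p assumes that a lone treated library varies as they do. Nothing in the labels says whether these come from separate birds, and their spread may be technical. A fold is understated for low genes on this scale. The script was checked on simulated data in which treated and wild-type libraries had the same spread. That check cannot show whether a lone treated library varies as the wild types do.

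Genes named are members past the 2-fold rule, the 5 highest of each family, members 2-fold apart between wild types, list genes past the rule, WNT5A and ACTB. Others were chosen after their values were seen. Among members these were MMP16, MMP17, MMP24, MMP27, MMP28, ADAMTS5, ADAMTS6, ADAMTS8, ADAMTS13, ADAMTS15, ADAMTS17 to ADAMTS19, ADAMTSL3, ADAM19, ADAM22, ADAM23 and the untested members. Among list genes they included FURIN, RECK, VCAN, COL1A2, PCOLCE2, HTRA3 and CTSD. Members and lists were chosen with earlier results of these data known. Position by any margin, treated pairs and the ADAMTS median were added after seeing the data. Symbols were matched to the RefSeq gene table of another build (42 of 45 matched), which served for names and neighbours.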

Additional observations from a re-analysis of the deposited data

How the results depend on the processing

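No paired analysis was possible because each treated group has 1 library and the labels pair no treated library with a wild type. Values are given for the library labelled Wnt5a, lnc7831 knockdown and lnc3500 knockdown in that order. As deposited, without centring, the counts of members past the 2-fold rule above wild type were 1, 9 and 2, those below both 0 in the first and 0 in the second, and median member differences were 0.504, 1.012 and 0.635. Members above both by any margin were then 26, 33 and 31, beside 76.5%, 84.6% and 80.2% of all tested genes, and below both 4, 2 and 1, beside 6.93%, 3.44% and 5.44%. The share of members above both was thus below that of all tested genes in each treated library. In lnc7831 knockdown, 15 of 16 ADAMTS entries were then above both, beside 84.6% of all tested genes. Their median was 1.16, beside 0.64 for all genes. Over all genes, limma's calls for the library labelled Wnt5a were 0 as deposited, 0 with no filter, 0 with a pseudocount of 0.1 and 4 with upper-quartile centring. For lnc7831 knockdown they were 0 with no filter, 0 with a pseudocount of 0.1 and 8 with upper-quartile centring, and for lnc3500 knockdown 2 with upper-quartile centring. With upper-quartile centring the median difference was -0.14 in the first and -0.0255 in the third.

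Shares of all tested genes under the settings of this paragraph are not given, so its counts are not set against genes at large. At a fold of 1.5, 1, 4 and 1 members were above both wild types, and 3 were below both in the library labelled Wnt5a. With a pseudocount of 0.1, 2 members were 2-fold below both there, the lnc7831 median was 0.41, and 7 members were 2-fold apart between the library labelled Wnt5a and lnc7831 knockdown. With a pseudocount of 5, 0 members were below both in the first and 0 in the second, the medians were 0.25 (lnc7831) and 0.00195 (lnc3500), the lnc7831 ADAMTS median was 0.31, that pair had 2 members and the wild types 6. With a minimum mean of 5 FPKM, 1 member was 2-fold below in lnc7831 knockdown, its median was 0.47 and its ADAMTS median 0.82, and members below both by any margin were 6, 3 and 5.

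For a single wild type as control, shares of all tested genes are not given, so these counts too are not set against genes at large. Against either wild type alone, members at least 2-fold above it were 2 to 4, 5 to 7 and 3 to 6, and below it 3 to 4, 3 to 4 and 1 to 3. Median differences were -0.0886 to 0.112, 0.0967 to 0.333 and 0.0171 to 0.115. Members above it by any margin were 19 to 23, 25 to 31 and 21 to 24, and below it 19 to 23, 11 to 17 and 18 to 21. In lnc7831 knockdown 11 to 14 ADAMTS entries were above it, with medians of 0.27 to 0.78. The member differences past the 2-fold rule with the main settings, those of MMP10 and TIMP4, kept their sign under every setting fitted. Members lying between the wild types, such as MMP7 and ADAMTSL2, changed sign with the sole control. MMP7 was at 2.37, 3.02 and 2.19 against library 2 alone, and at -1.68, -1.03 and -1.86 against library 1 alone. ADAMTSL2 in lnc3500 knockdown was at -1.36 and 1.499 against these libraries. A tally of 75 differences covered the members named by rule, not those chosen after their values were seen. Of the 75, 37 moved by more than the wild-type spread as deposited and 16 with upper-quartile centring. The causes were not tested. FPKM carry no depth, so low members such as ADAMTSL3 and TIMP4 have no counting interval, and 1 library per treatment limits every comparison.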

Other observations

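Among the other proteolysis genes, PCOLCE2, an enhancer of the carboxy-terminal processing of procollagen, had 6.70 FPKM in the library labelled Wnt5a, 13.0 in lnc7831 knockdown and 12.7 in lnc3500 knockdown, against 9.25 and 12.1 in wild type. It was below both wild types in the library labelled Wnt5a, with a relative log2 difference of -1.13 (SE 0.33, limma adjusted p = 1.0). HTRA3, a secreted serine protease related to HTRA1, had 28.6 FPKM in the library labelled Wnt5a, 16.0 in lnc7831 knockdown and 33.8 in lnc3500 knockdown, against 8.37 and 12.0 in wild type. Its relative difference was 1.06 in lnc3500 knockdown (SE 0.37, limma adjusted p = 1.0). CTSD, the lysosomal aspartic protease cathepsin D, had 343 FPKM in the library labelled Wnt5a, 388 in lnc7831 knockdown and 351 in lnc3500 knockdown, against 118 and 118 in wild type. Its relative differences were 0.93, 0.998 and 0.93 (SE 0.39 each) in these treated libraries, short of the 2-fold rule.

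Summed centred FPKM of 4 muscle markers were 2438 in the library labelled Wnt5a, 2204 in lnc7831 knockdown and 3609 in lnc3500 knockdown, against 1893 and 2419 in wild type. For 5 pigment cell markers, with PMEL and DCT at 0 in some or all libraries, the sums were 22.6, 32.0 and 20.5, against 20.5 and 26.8. In lnc7831 knockdown the 3 tested pigment cell markers had relative differences from -0.07 to 2.29, with a median of 0.63. Among these, TYRP1, an enzyme of melanin synthesis, had 0.282 FPKM in the library labelled Wnt5a, 14.1 in lnc7831 knockdown and 1.49 in lnc3500 knockdown, against 3.01 and 0.189 in wild type, past the 2-fold rule in lnc7831 knockdown (2.29, SE 0.98, limma adjusted p = 1.0). Of 4 haemoglobin entries, HBAD, HBAA and HBE1 were listed at 0 in 1 library or more. HBG2 had 21.8 FPKM in the library labelled Wnt5a, 56.9 in lnc7831 knockdown and 26.7 in lnc3500 knockdown, against 12.6 and 10.6 in wild type, and it too was past the 2-fold rule in lnc7831 knockdown (1.52, SE 0.35, limma adjusted p = 1.0). The part of these cells in the values of lnc7831 knockdown was not tested.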
